A study of Mus musculus with 6 samples.

Results

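The genes described here encode the glucose and lactate transporters, the enzymes of glycolysis and of the pentose phosphate pathway with malic enzyme, and the enzymes and kinases that control the entry of pyruvate into the tricarboxylic acid (TCA) cycle. They were chosen by name as a list of 39 genes. All 39 were found among the 56941 gene IDs of the count table, and all 39 passed the filter on low counts. The list holds 4 transporters, 17 glycolytic genes, 8 pentose phosphate and NADPH genes and 10 genes of pyruvate entry and the TCA cycle.

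The samples were CD31-positive lung cells of mouse pups, selected with magnetic beads and sequenced as RNA. Room air pups were kept at 21% oxygen and hyperoxia pups at 75% oxygen. Exposure began on postnatal day 0, and lungs were taken on postnatal day 7. Each group had 3 libraries, numbered in the sample titles. Both groups were digested and selected in the same way. The sources used here give no strain, genotype or number of pups per library, and do not say that replicates were separate animals. The p-values measure the spread between these libraries, which may be technical in part. Newborn mice in high oxygen are a model of the arrested lung growth of preterm infants on oxygen.

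Endothelial cells take up glucose through GLUT1 and draw much of their ATP from glycolysis, with lactate leaving through monocarboxylate transporters. Glucose that is diverted into the pentose phosphate pathway yields NADPH, which restores glutathione and thioredoxin after oxidation, and ribose for nucleotides. Cytosolic malic enzyme and isocitrate dehydrogenase yield NADPH as well. Pyruvate that enters the mitochondrion passes pyruvate dehydrogenase, which the PDK kinases switch off, or pyruvate carboxylase. The transcription factor NRF2 is known to induce several pentose phosphate genes and malic enzyme, through antioxidant response elements, and the hypoxia-inducible factors are known to induce many glycolytic genes.

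Total counts ran from 39379793 to 42343192 per library. Markers were abundant for the labelled cell type and for others: the summed level of 14 pan-endothelial genes was 14227 to 19558 CPM (read counts scaled to a common library total) in room air and 12099 to 16458 CPM in hyperoxia, with Pecam1, the CD31 gene, and Cdh5 present in every library. The sum of 10 alveolar type 2 epithelial markers was 13316 to 20945 CPM in room air against 14773 to 17767 in hyperoxia, led by the surfactant gene Sftpc. Of 10 alveolar type 1 markers, 8 rose in hyperoxia by edgeR (median log2 fold change of the list 1.18), and their sum went from 4345 to 4750 CPM in room air to 6791 to 7806 CPM in hyperoxia. Of 10 genes of mitosis, 10 fell (median log2 fold change -1.08). Of 10 immediate early genes, which can respond to warm digestion, 6 rose, with sums of 6344 to 9616 CPM in room air against 10769 to 11221 in hyperoxia. Hyperoxia 2 was the lowest library for 10 of the 14 pan-endothelial genes and the highest for 9 of the 10 alveolar type 1 markers. Reads from Y-linked genes were present in room air 1, 2 and 3 and in hyperoxia 2 (5433 to 6361 counts) and nearly absent from hyperoxia 1 and 3 (2 and 0 counts). Sex and oxygen thus cannot be fully told apart in these libraries. The 4 libraries with Y-linked reads, used alone as an alternative below, hold hyperoxia 2 as their only hyperoxia library. That alternative has no spread within hyperoxia, so only its fold changes are given. In bulk samples fewer cells of a type and less RNA per cell cannot be told apart.

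Of the 39 genes, 7 were higher and 1 was lower in hyperoxia at an edgeR adjusted p below 0.05, and 31 did not pass. Across all 17072 genes tested, 11.2% passed, 6.77% as higher and 4.41% as lower. The genes that rose were those for the glucose transporter GLUT1 (Slc2a1), the monocarboxylate transporter MCT1 (Slc16a1), the regulator enzyme PFKFB3 (Pfkfb3), aldolase A (Aldoa), lactate dehydrogenase B (Ldhb), phosphogluconate dehydrogenase (Pgd) and cytosolic malic enzyme (Me1). The gene that fell was that for the liver type subunit of phosphofructokinase (Pfkl). Log2 fold changes were 0.44 to 1.41 for those that rose, the largest being Me1 (2.65-fold), and -0.70 for Pfkl. The median over the 39 genes was 0.17, against -0.01 over all genes tested, and 30 of the 39 had a fold change above 0. Room air and hyperoxia did not overlap for 15 of the 39 genes, where 30.9% of all genes tested did not overlap. Hyperoxia 2 was the highest library for each of the 7 genes that rose and the lowest for Pfkl. Alveolar type 1 markers and immediate early genes were higher in the same 3 libraries, as given above, and their part in these results was not tested.

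**Figure D1:**
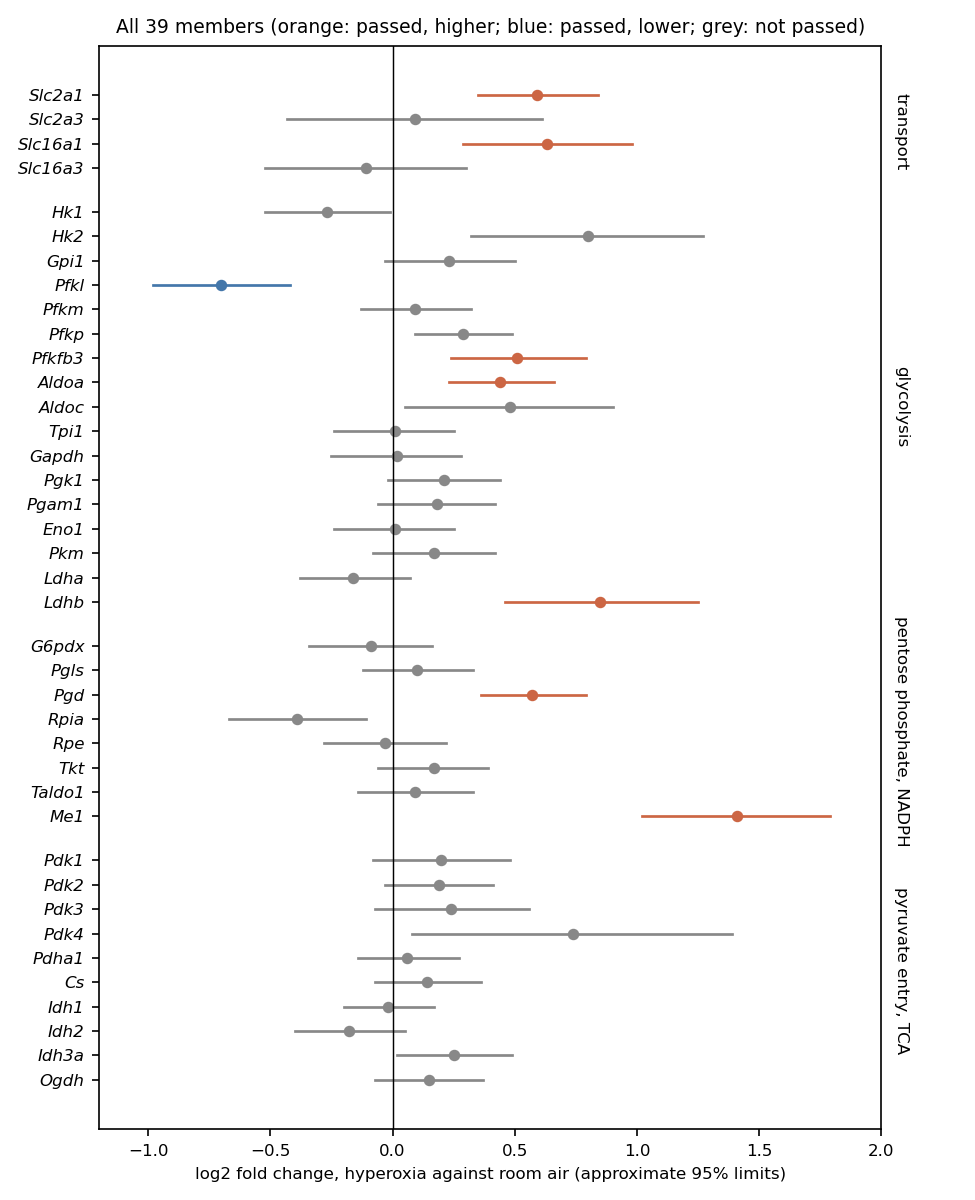
Log2 fold change of each of the 39 genes, hyperoxia against room air, with approximate 95% limits from the edgeR fit, grouped by role. The limits use a normal multiplier of SE and are somewhat too narrow. Points in orange (7) passed as higher, the point in blue (Pfkl, -0.70) passed as lower, grey points did not pass, and no gene of pyruvate entry or the TCA cycle passed.

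By role, of the 4 transporters 2 rose, of the 17 glycolytic genes 3 rose and 1 fell, of the 8 pentose phosphate and NADPH genes 2 rose, and of the 10 pyruvate entry and TCA genes 0 passed. With 4 to 17 genes per role, these counts describe the list, and the roles were not compared by a test. The count of 7 rested in part on single libraries: it was 2 without room air 2 and 4 without room air 1, hyperoxia 2 or hyperoxia 3. Fewer libraries lowered the count over all genes too. The 1156 higher genes became 681 without room air 2, and 754, 823 and 713 without room air 1, hyperoxia 2 and hyperoxia 3. Me1 and Pgd were higher under each of the 18 alternatives tried, and Pfkl was lower under each of them.

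Promoter windows of 5 of the 8 genes that passed, and of G6pdx, which did not pass but encodes the first enzyme of the pathway of Pgd, are shown first, because NRF2 and the hypoxia-inducible factors read known short motifs. They were chosen after the values and matches were seen, and the windows of Pfkfb3, Aldoa and Ldhb are described without their letters. Windows of 250 bases before and 50 bases after each start were taken from RefSeq on the build GRCm38.p6, which is not the build of the counts. A window was found for 37 of the 39 genes, 59 windows in all, some of them overlapping. Both strands were searched for TGACNNNGC, the core of the antioxidant response element (ARE). They were also searched for ACGTG, a form of the core of the hypoxia response element (HRE). GCGTG, the other known form of the HRE core, was not searched for or marked. It occurs, for example, in the windows of Pfkl and Ldhb and in the first Pgd window. Below, HRE core means ACGTG only. Capitals mark either core, on either strand.

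Me1, first window (chr9:86695865-86696164, minus strand): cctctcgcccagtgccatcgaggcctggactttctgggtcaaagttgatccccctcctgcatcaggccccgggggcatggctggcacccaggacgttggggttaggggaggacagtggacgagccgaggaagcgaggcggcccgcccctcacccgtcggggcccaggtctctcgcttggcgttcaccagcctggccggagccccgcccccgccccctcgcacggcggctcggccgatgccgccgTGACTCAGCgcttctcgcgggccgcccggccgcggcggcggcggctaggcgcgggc

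Pgd, second window (chr4:149166033-149166332, minus strand): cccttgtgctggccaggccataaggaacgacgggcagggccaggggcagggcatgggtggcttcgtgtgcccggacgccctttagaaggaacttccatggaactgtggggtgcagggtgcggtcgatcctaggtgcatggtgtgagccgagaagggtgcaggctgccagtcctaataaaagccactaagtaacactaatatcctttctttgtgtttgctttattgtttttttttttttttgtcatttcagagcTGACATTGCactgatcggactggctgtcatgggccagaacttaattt

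G6pdx (chrX:74428831-74429130, minus strand): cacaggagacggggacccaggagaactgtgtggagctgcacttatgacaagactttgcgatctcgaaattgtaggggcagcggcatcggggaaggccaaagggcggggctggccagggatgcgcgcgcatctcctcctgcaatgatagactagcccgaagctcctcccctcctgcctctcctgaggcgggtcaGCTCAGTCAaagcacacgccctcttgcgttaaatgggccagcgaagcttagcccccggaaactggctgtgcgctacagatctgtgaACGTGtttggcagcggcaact

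Slc2a1 (chr4:119108495-119108794, plus strand): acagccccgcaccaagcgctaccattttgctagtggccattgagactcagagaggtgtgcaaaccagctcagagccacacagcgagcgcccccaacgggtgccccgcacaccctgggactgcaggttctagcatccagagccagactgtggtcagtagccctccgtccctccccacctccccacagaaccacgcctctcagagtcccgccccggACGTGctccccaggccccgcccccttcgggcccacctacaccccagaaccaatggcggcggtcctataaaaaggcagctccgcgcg

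Slc16a1 (chr3:104638414-104638713, plus strand): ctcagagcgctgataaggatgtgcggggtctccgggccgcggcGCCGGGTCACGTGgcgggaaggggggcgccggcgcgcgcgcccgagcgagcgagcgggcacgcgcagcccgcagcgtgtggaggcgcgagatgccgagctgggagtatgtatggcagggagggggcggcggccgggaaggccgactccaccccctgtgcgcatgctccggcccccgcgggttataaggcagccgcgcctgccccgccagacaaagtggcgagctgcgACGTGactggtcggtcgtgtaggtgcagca

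Pfkl (chr10:78009758-78010057, minus strand): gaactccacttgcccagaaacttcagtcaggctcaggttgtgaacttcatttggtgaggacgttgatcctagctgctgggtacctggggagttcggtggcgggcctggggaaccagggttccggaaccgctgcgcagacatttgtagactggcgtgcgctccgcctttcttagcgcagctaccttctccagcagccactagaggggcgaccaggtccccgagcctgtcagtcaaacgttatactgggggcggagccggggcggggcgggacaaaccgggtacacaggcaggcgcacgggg

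The first Me1 window held an ARE core on the coding strand that begins 6 bases before the start, while the second Me1 window held no ARE core and had an HRE core 98 bases before its start. The G6pdx window held one on the opposite strand that begins 57 bases before, and an HRE core 29 bases after the start. At Pgd the first start had neither core in its window, and the second had an ARE core 3 bases after the start. That second start lies downstream of the first and directly follows tttcag, letters like those at the end of an intron. The core there may thus lie in an exon and not in a promoter. It is counted among the 3 pentose phosphate and NADPH windows below. The Slc16a1 window held an ARE core on the opposite strand, 207 bases before the start, which overlaps an HRE core. In the Slc2a1 window the only HRE core begins 36 bases before the start, and the Pfkl window held neither. Of the 3 Aldoa windows, the first held neither core. The second held an ARE core 220 and an HRE core 126 bases before its start. The third overlaps the second and held the same HRE core, 202 bases before its own start, so both windows count that core. Both Pfkfb3 windows held an HRE core and no ARE core, and the Ldhb window held neither. In all, 3 of 10 windows of the pentose phosphate and NADPH genes held the ARE core (30%), as did 2 of 29 glycolytic windows (6.9%) and 0 of 17 windows of pyruvate entry and the TCA cycle, against 12.4% of all 32851 windows in the table. The HRE core was in 3 of 3 transporter windows, in 14 of 29 glycolytic windows (48.3%), in 2 of 10 pentose phosphate and NADPH windows (20%) and in 8 of 17 windows of pyruvate entry and the TCA cycle (47.1%), against 19.6% of all windows. Of those 8 windows, 6 belong to Ogdh alone and mostly overlap, and without Ogdh the count was 2 of 11 (18.2%). By gene, the HRE core was in a window of 11 of 17 glycolytic genes, 2 of 8 pentose phosphate and NADPH genes and 3 of 9 genes of pyruvate entry and the TCA cycle. No share by gene was computed over all genes, so these counts have no background. A gene with more windows also has more chances of a match. A match is a run of letters and was not tested as a site.

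Glucose enters endothelial cells through GLUT1. Slc2a1 (ENSMUSG00000028645) stood at 26.9, 21.8 and 23.3 CPM in room air 1 to 3 and at 34.6, 38.4 and 35.8 CPM in hyperoxia 1 to 3. The 3 hyperoxia libraries lay close together, and all were above room air. On average it rose from 24 ± 2.6 to 36.2 ± 1.95 CPM (SD, n = 3 per group), a log2 fold change of 0.59 (SE 0.12, edgeR adjusted p = 0.0115). The call was lost without room air 2 (edgeR adjusted p = 0.0544), without hyperoxia 2 and room air 3 together (0.0588), and among the 4 libraries with Y-linked reads (0.0572). Slc2a3, the gene for the high-affinity transporter GLUT3, ran from 6.86 to 15.1 CPM in room air and from 10.5 to 14.4 CPM in hyperoxia, with all hyperoxia values inside the range of room air (log2 fold change 0.09, SE 0.27, edgeR adjusted p = 0.876).

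Lactate and pyruvate cross the plasma membrane through MCT1 and MCT4. Slc16a1, the MCT1 gene (ENSMUSG00000032902), was at 22.6, 15.5 and 22.8 CPM in room air and at 26, 35.7 and 32.9 CPM in hyperoxia. Room air 2 was the low library, and the groups did not overlap. Its mean went up from 20.3 ± 4.15 in room air to 31.5 ± 4.98 CPM (log2 fold change 0.63, SE 0.18, edgeR adjusted p = 0.0438). It did not pass without room air 1 (edgeR adjusted p = 0.0676), room air 2 (0.138), hyperoxia 2 (0.115) or hyperoxia 3 (0.136), nor scaled by library size only (0.0627). It also missed without hyperoxia 2 and room air 3 together (edgeR adjusted p = 0.095). Among the 4 libraries with Y-linked reads its log2 fold change was 0.79. Slc16a3, the gene for the lactate exporter MCT4, was at 14.8 ± 3.9 CPM in room air against 13.8 ± 1.81 in hyperoxia (log2 fold change -0.11, SE 0.21, edgeR adjusted p = 0.802). The log2 ratio of Slc16a1 to Slc16a3 counts was 0.48, 0.57 and 0.35 in room air and 0.92, 1.19 and 1.45 in hyperoxia, a difference of 0.72. The groups of this ratio did not overlap, and the exact two-sided permutation test gave p = 0.1, the smallest that 3 against 3 libraries allow (0.167 adjusted over the 5 ratios computed).

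**Figure D2:**
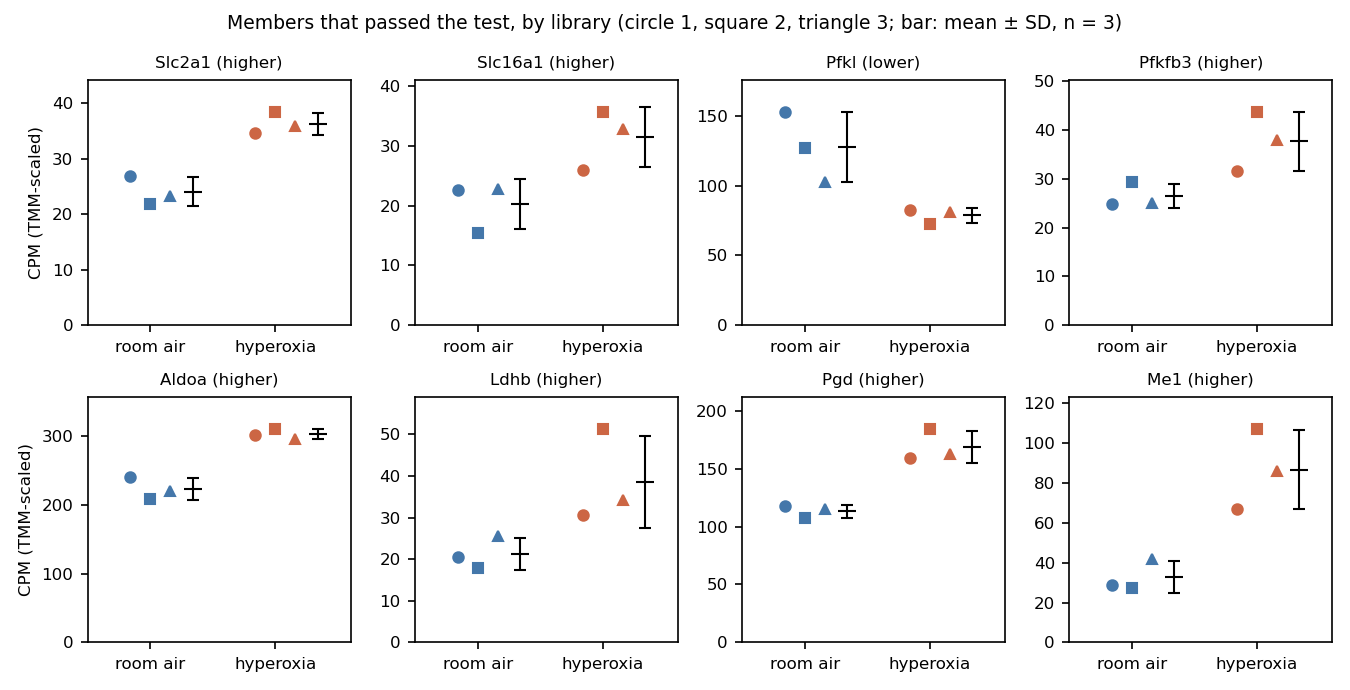
Level in CPM, scaled by TMM, of the 8 genes that passed the test, 1 point per library (circle, square and triangle for replicates 1, 2 and 3), with mean ± SD beside each group. The groups do not overlap in any panel, and the square of hyperoxia 2 is the highest point of all 7 genes that rose and the lowest of Pfkl.

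Of the 17 glycolytic genes, Pfkfb3, Aldoa and Ldhb rose, Pfkl fell and 13 did not pass. Phosphofructokinase commits sugar to glycolysis, and its subunits come from 3 genes. Pfkl (ENSMUSG00000020277) was at 153, 127 and 103 CPM in room air and at 82.6, 72.7 and 80.9 CPM in hyperoxia. The 3 hyperoxia libraries lay together below the spread room air libraries. The mean fell from 128 ± 25 to 78.7 ± 5.28 CPM, a log2 fold change of -0.70 (SE 0.14, edgeR adjusted p = 0.0105). Leaving out each library in turn gave values between -0.83 and -0.56, and each passed. Pfkm, the muscle type gene, was at 33.9 ± 1.52 and 36.1 ± 3.2 CPM (log2 fold change 0.09, edgeR adjusted p = 0.664). Pfkp, the platelet type gene, was at 43.7 to 45.9 CPM in room air against 52.2 to 57.1 in hyperoxia, without overlap, and did not pass (log2 fold change 0.29, SE 0.10, edgeR adjusted p = 0.0942).

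Divided by exonic length, the summed level of the 3 phosphofructokinase genes was 32.6 ± 4.28 CPM per kilobase in room air and 26.7 ± 1.78 in hyperoxia. Pfkl made up 62%, 58.8% and 54.2% of that sum in room air 1 to 3 and 45.7%, 44% and 42.9% in hyperoxia 1 to 3. Pfkm went from 31.4% ± 2.75 to 40.5% ± 1.28 and Pfkp from 10.3% ± 1.14 to 15.2% ± 0.48 (SD, n = 3). These shares were computed after the values of the genes had been seen and carry no test. Exonic lengths came from an annotation on another build and take all transcripts of a gene together, so a share between genes is approximate.

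PFKFB3 makes the sugar bisphosphate that activates phosphofructokinase, and it is known as a driver of vessel sprouting. Pfkfb3 (ENSMUSG00000026773) was at 24.9, 29.3 and 25.1 CPM in room air and at 31.6, 43.7 and 37.9 CPM in hyperoxia. Hyperoxia 1 lay only just above room air 2. The group mean climbed from 26.4 ± 2.48 in room air to 37.7 ± 6.05 CPM (log2 fold change 0.51, SE 0.14, edgeR adjusted p = 0.0417). The call was lost without room air 1 (edgeR adjusted p = 0.122), room air 2 (0.0635), room air 3 (0.0951), hyperoxia 2 (0.125) or hyperoxia 3 (0.126), and scaled by library size only (0.0572). Without hyperoxia 2 and room air 3 together the log2 fold change was 0.35 (edgeR adjusted p = 0.207).

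Aldolase splits the sugar bisphosphate into trioses. Aldoa (ENSMUSG00000030695) was at 240, 208 and 220 CPM in room air and at 302, 310 and 296 CPM in hyperoxia. Both groups were tight, with a wide gap between them. The mean rose from 223 ± 16.3 in room air to 303 ± 6.73 CPM (log2 fold change 0.44, SE 0.11, edgeR adjusted p = 0.0267). It did not pass without room air 2 (edgeR adjusted p = 0.0992), hyperoxia 1 (0.0839), hyperoxia 2 (0.0733) or hyperoxia 3 (0.101). It also missed with the Y-linked read level as a term (edgeR adjusted p = 0.0687). Among the 4 libraries with Y-linked reads the log2 fold change of Aldoa was 0.45. Its log2 fold change stayed between 0.39 and 0.49 in all 18 alternatives. Aldoc, the brain type aldolase gene, was at 6.12 ± 1.03 and 8.52 ± 1.38 CPM and did not pass (log2 fold change 0.48, edgeR adjusted p = 0.2).

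Hexokinase traps glucose by phosphorylating it. Hk1, the gene for the widely expressed form, was at 216, 187 and 160 CPM in room air and at 161, 141 and 167 CPM in hyperoxia, so the groups overlapped (log2 fold change -0.27, SE 0.13, edgeR adjusted p = 0.241). Hk2, the gene for the inducible form, was at 4.98, 4.69 and 7.02 CPM in room air and at 7.56, 11.9 and 9.55 CPM in hyperoxia. Its groups did not overlap, and it missed the threshold (log2 fold change 0.80, SE 0.24, edgeR adjusted p = 0.0596). Hk2 passed without room air 3 (edgeR adjusted p = 0.031), with no filter on low counts (0.0116), with the Y-linked read level as a term (0.0292) and by DESeq2 (adjusted p = 0.018). The log2 ratio of Hk1 to Hk2 counts was 5.44, 5.31 and 4.51 in room air and 4.41, 3.56 and 4.13 in hyperoxia (difference -1.06, exact permutation p = 0.1, 0.167 adjusted over the 5 ratios).

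Lactate dehydrogenase interconverts pyruvate and lactate. Its heart type subunit is encoded by Ldhb (ENSMUSG00000030246), which was at 20.6, 17.9 and 25.5 CPM in room air and at 30.5, 51.2 and 34.1 CPM in hyperoxia. Hyperoxia 2 stood well above the other libraries. On average it rose from 21.3 ± 3.82 in room air to 38.6 ± 11.1 CPM (log2 fold change 0.85, SE 0.20, edgeR adjusted p = 0.0208). It was 0.60 without hyperoxia 2 (edgeR adjusted p = 0.0477), and the call was lost without room air 1 (0.0727) or room air 2 (0.0922). Ldha, the gene for the muscle type subunit, was at 297 ± 27.5 CPM in room air against 266 ± 10.9 in hyperoxia (log2 fold change -0.16, SE 0.12, edgeR adjusted p = 0.441). The log2 ratio of Ldha to Ldhb counts was 3.96, 3.89 and 3.57 in room air and 3.15, 2.31 and 3.01 in hyperoxia (difference -0.99, exact permutation p = 0.1, 0.167 adjusted over the 5 ratios). Per exonic length Ldhb made up 13.1% ± 1.7 of the 2 genes in room air and 23.3% ± 5.76 in hyperoxia.

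**Figure D3:**
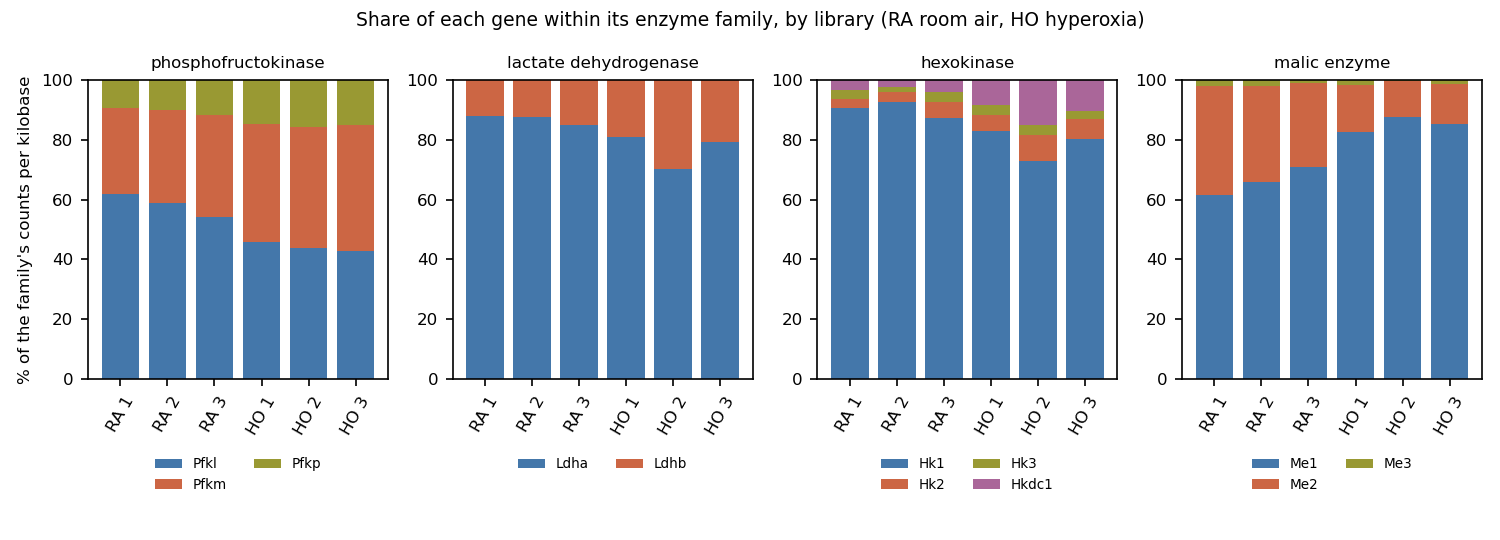
Share of each gene in the summed counts per kilobase of its enzyme family, in percent, as stacked bars for each of the 6 libraries (RA room air, HO hyperoxia). The Pfkl share is 54.2% or more in room air and 45.7% or less in hyperoxia, and Ldhb, Hkdc1 and Me1 hold larger shares in each hyperoxia library than in any room air library.

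From triosephosphate isomerase to pyruvate kinase no gene passed the test. Pkm, the pyruvate kinase gene and the most abundant of the 39 per exonic length, was at 592, 479 and 479 CPM in room air and at 591, 571 and 584 CPM in hyperoxia. Room air 1 was at the level of hyperoxia, and room air 2 and 3 were lower (log2 fold change 0.17, 95% limits -0.08 to 0.42, edgeR adjusted p = 0.455). Eno1, the enolase gene, was at 236 ± 32.8 and 237 ± 6.09 CPM, with limits of -0.24 to 0.25 on the log2 scale. Tpi1, the triosephosphate isomerase gene, had limits of -0.24 to 0.25 as well. For Gpi1 (phosphoglucose isomerase), Pgk1 (phosphoglycerate kinase) and Pgam1 (phosphoglycerate mutase) the log2 fold changes were 0.23, 0.21 and 0.18, and the groups overlapped. An edgeR p that misses the threshold does not show equal levels. The limits use a normal multiplier of SE and are too narrow for 3 libraries per group, so they give only a rough range. Those of Hk1, -0.52 to -0.01, leave out 0 although its unadjusted edgeR p was 0.0686.

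Several of these genes have near-identical copies in the genome. Of the 50-base runs in Gapdh transcripts 25.1% also occur in another gene's transcripts, and the share was 53.9% for Pgk1, 36.2% for Pgam1, 26% for Eno1, 25.8% for Pkm, 21% for Ldhb and 28.3% for Me1. These shares also count genes that overlap the member in place, such as Gm49759 on the same strand as Pkm. The copy of Pkm itself, Gm6560, shared 12%. Gapdh, the glyceraldehyde phosphate dehydrogenase gene, was at only 49.7 ± 8.78 CPM in room air against 50.3 ± 3.06 in hyperoxia, or 12.1 CPM per kilobase over the 6 libraries against 43.9 for Eno1 and 90.3 for Aldoa on the same scale. Its 31 copies together held 4953 counts, 40.7% of the 12165 counts of Gapdh itself, so its level is uncertain. Copies of the other genes held 1.85% or less of the member's counts. With the copies' counts added, each of the 39 genes kept its call. How reads that match several places were handled is not known, and if dropped they are missing from member and copy alike. Low copy counts and this sum thus cannot show that the levels are unaffected. Exons of another gene covered 20.6% of Pgls, 17.9% of Rpe, 16.1% of Pdha1, 15.3% of Pkm, 13.6% of G6pdx, 11.5% of Gpi1 and 10.7% of Pfkm, whose counts are therefore uncertain too.

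The pentose phosphate pathway and malic enzyme held the largest rise among the 39 genes. Me1 (ENSMUSG00000032418), which encodes cytosolic malic enzyme and yields NADPH from malate, was at 28.7, 27.4 and 41.9 CPM in room air and at 67.1, 107 and 86.2 CPM in hyperoxia. The lowest hyperoxia library lay well above the highest room air library. The mean rose 2.65-fold by the fit, from 32.7 ± 8.03 to 86.7 ± 19.8 CPM (log2 fold change 1.41, SE 0.20, edgeR adjusted p = 0.0016). Without hyperoxia 2 it was 1.23 (edgeR adjusted p = 0.00241), and over the 18 alternatives it ran from 1.23 to 1.68. Me1 made up 66.2% ± 4.8 of the 3 malic enzyme genes per exonic length in room air and 85.1% ± 2.52 in hyperoxia. Me2, the mitochondrial form, was at 29.5 ± 3.76 and 25.7 ± 1.88 CPM and did not pass (log2 fold change -0.20, edgeR adjusted p = 0.405).

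Pgd (ENSMUSG00000028961) encodes phosphogluconate dehydrogenase, the second NADPH-yielding step of the pathway. It was at 118, 107 and 115 CPM in room air and at 159, 184 and 163 CPM in hyperoxia. Each group was tight, with a gap between them. Its mean went up from 113 ± 6.15 in room air to 169 ± 13.9 CPM (log2 fold change 0.57, SE 0.11, edgeR adjusted p = 0.00704). Over the 18 alternatives the log2 fold change was 0.50 to 0.70 with edgeR, limma or DESeq2 adjusted p-values of at most 0.0353.

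The other 6 genes of the pathway did not pass. G6pdx, which encodes the first and rate-setting NADPH-yielding enzyme, was at 42.2, 35.3 and 37.2 CPM in room air and at 38, 31.1 and 38.9 CPM in hyperoxia (log2 fold change -0.09, 95% limits -0.34 to 0.16, edgeR adjusted p = 0.723). The groups overlapped, and the approximate upper limit lay below the log2 fold change fitted for Pgd (0.57). Pgls, the gene for the lactonase between those steps, had a log2 fold change of 0.10. Among the enzymes that reshuffle sugars, Tkt (transketolase, 0.17) and Taldo1 (transaldolase, 0.09) were at 183 ± 22.2 and 153 ± 17.6 CPM in room air and at 205 ± 6.04 and 164 ± 12.3 CPM in hyperoxia. Rpia, the ribose phosphate isomerase gene, was at 19.2 to 22.6 CPM in room air against 14.1 to 17.2 in hyperoxia, without overlap (log2 fold change -0.39, SE 0.14, edgeR adjusted p = 0.115). Rpe, the epimerase gene, had a log2 fold change of -0.03.

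Known NRF2 targets outside the pathway were read for comparison. Nqo1, a quinone reductase gene, had a log2 fold change of 2.51, and Srxn1, the sulfiredoxin gene, went up from 6.74 ± 0.701 to 28.7 ± 4.12 CPM (2.09, edgeR adjusted p = 9.62e-05). Txnrd1, the gene for the NADPH-using thioredoxin reductase, rose from 98.1 ± 5.83 to 163 ± 18.6 CPM (0.73, edgeR adjusted p = 0.00284). Gclm, a subunit gene of glutathione synthesis, did not pass (0.31, edgeR adjusted p = 0.0734). The value for Pgd (0.57) lay between those of Gclm and Txnrd1, and that of G6pdx (-0.09) below all of them. Alveolar type 1 markers rose in the same libraries (median 1.18, summed level highest in hyperoxia 2, as for Me1 and Pgd), and their part in these results was not tested.

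**Figure D4:**
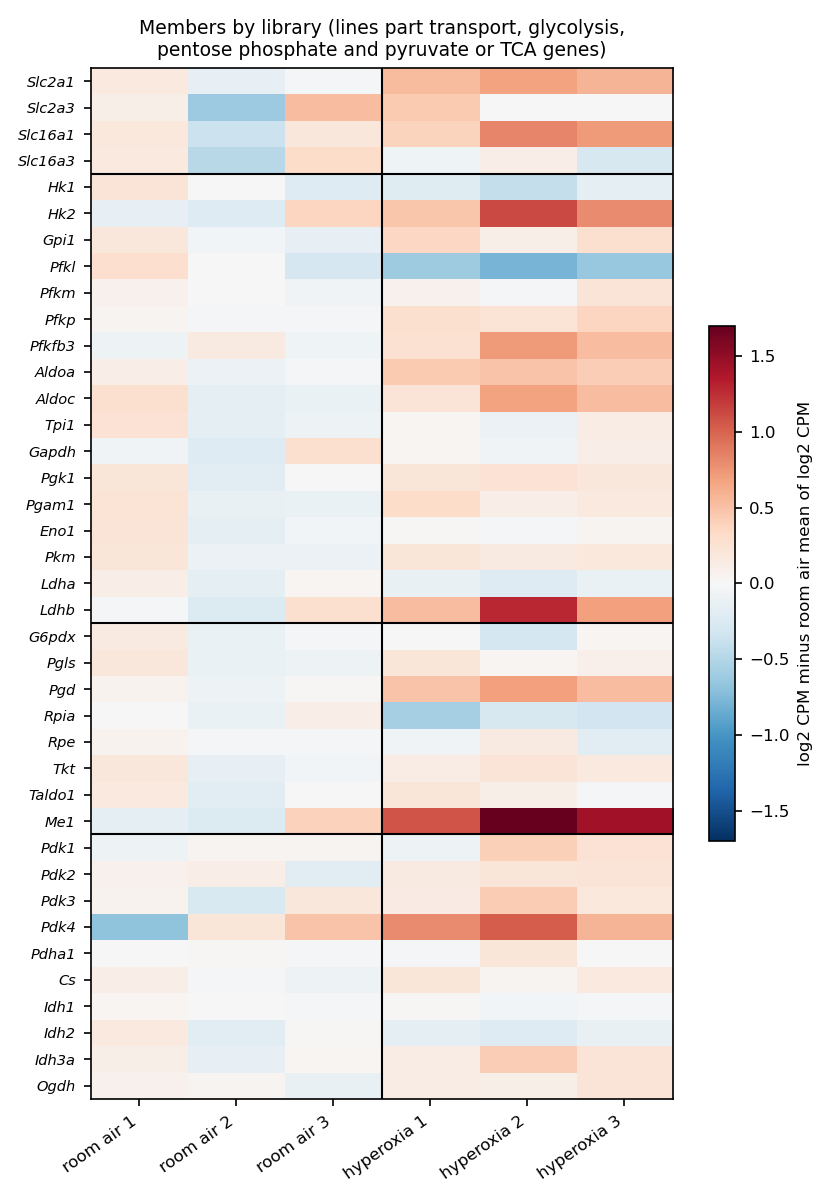
Each row is 1 of the 39 genes and each column 1 library, coloured by log2 CPM minus the mean log2 CPM of the 3 room air libraries (red higher, blue lower). Me1 and Ldhb are the reddest rows in hyperoxia 2, and Pfkl is blue in all 3 hyperoxia libraries.

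Pyruvate entry and the TCA cycle showed no gene past the threshold. By edgeR, 0 of 10 genes passed at an adjusted p below 0.05, with DESeq2 and limma-voom also giving 0, and 0 had an unadjusted edgeR p below 0.05. The median log2 fold change was 0.17. The PDK kinases phosphorylate and switch off pyruvate dehydrogenase. Pdk4, the gene for the fasting-induced kinase, was at 1.43, 2.65 and 3.21 CPM in room air and at 4.02, 4.7 and 3.43 CPM in hyperoxia, and per exonic length it was the lowest of the 39 genes. Its groups were separated by a narrow gap (log2 fold change 0.74, SE 0.33, edgeR adjusted p = 0.2). Pdk2, the most abundant PDK gene, was at 54.9 ± 6.1 and 62.6 ± 1.49 CPM (log2 fold change 0.19, edgeR adjusted p = 0.329). Pdk2 made up 62.1% ± 5.05 of the 4 PDK genes per exonic length in room air and 61% ± 2.64 in hyperoxia. Pdk1, a known target of hypoxia-inducible factor, and Pdk3 had log2 fold changes of 0.20 and 0.24. Pdha1, which encodes the catalytic subunit of pyruvate dehydrogenase, was at 76.7 ± 1.1 and 80.2 ± 7.42 CPM, with limits of -0.14 to 0.27.

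Among the cycle enzymes, Cs (citrate synthase) was at 173 ± 12.5 CPM in room air against 191 ± 11.5 in hyperoxia, and Ogdh (the oxoglutarate dehydrogenase subunit) at 283 ± 21.2 and 314 ± 14 CPM. Their log2 fold changes were 0.14 and 0.15. Idh1, the cytosolic NADPH-yielding isocitrate dehydrogenase gene, was at 69.9, 68.7 and 67.2 CPM in room air and at 69.7, 66.3 and 67.5 CPM in hyperoxia. All 6 libraries lay within that narrow band, and the 95% limits of its log2 fold change were -0.20 to 0.17. Idh2, the mitochondrial NADPH-yielding form, was at 152 ± 18.3 and 134 ± 4.21 CPM (log2 fold change -0.18, edgeR adjusted p = 0.375). Idh3a, of the NAD-linked form, was at 40 to 47.4 CPM in room air against 47.9 to 59 in hyperoxia (0.25, edgeR adjusted p = 0.218). The log2 ratio of Pkm to Cs counts, pyruvate kinase over citrate synthase, was 1.58 ± 0.08 in room air and 1.61 ± 0.06 in hyperoxia (exact permutation p = 0.5). That of Idh1 to Idh2 was -1.14 ± 0.17 and -0.98 ± 0.04 (exact permutation p = 0.3, 0.375 adjusted over the 5 ratios).

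The remaining genes of the same pathways were read from 4 lists of textbook genes. Of 99 listed, 93 passed the filter, and of these 11 were higher (11.8%), 0 lower and 82 did not pass in edgeR, against 6.77% higher and 4.41% lower over all genes tested. Their median log2 fold change was 0.15. At an unadjusted edgeR p below 0.05 there were 24 higher and 3 lower (the lower being Slc2a10, Minpp1 and Pygm). DESeq2 also called 0 lower. The count of 11 became 4 without room air 2, 5 without hyperoxia 3 and 6 without room air 1. Hyperoxia 2 was the highest library for 10 of the 11.

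Pyruvate carboxylase, the mitochondrial enzyme that turns pyruvate into oxaloacetate, showed the largest change at the entry to the cycle. Pcx was at 11, 9.77 and 12.6 CPM in room air and at 26.3, 41 and 32.1 CPM in hyperoxia. Each hyperoxia library was above each room air library by a wide gap. The group mean climbed from 11.1 ± 1.43 in room air to 33.1 ± 7.39 CPM (log2 fold change 1.57, SE 0.18, edgeR adjusted p = 0.000586), and it passed in each of the 18 alternatives (1.39 without hyperoxia 2). Got1, the cytosolic aspartate aminotransferase gene, went up from 12.8 ± 2.58 in room air to 21.3 ± 2.38 CPM (log2 fold change 0.73, SE 0.18, edgeR adjusted p = 0.0241), but not without room air 2, hyperoxia 1 or hyperoxia 3. It also missed with the Y-linked read level as a term (log2 fold change 0.56, edgeR adjusted p = 0.123). Among the libraries with Y-linked reads its log2 fold change was 0.54. The other 28 genes of that list did not pass. They include Pdhb, Dlat and Dld of the pyruvate dehydrogenase complex, with log2 fold changes of -0.04, 0.18 and -0.12, and the succinate dehydrogenase genes Sdha to Sdhd, with 0.12 to 0.34.

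Of the other transporters, 3 of 16 rose. Slc2a9, the gene for a urate and sugar transporter of the GLUT family, was at 26.3, 20.1 and 17.4 CPM in room air and at 45.6, 50.8 and 47.2 CPM in hyperoxia. The hyperoxia libraries were tight and far above room air (log2 fold change 1.17, SE 0.15, edgeR adjusted p = 0.00112), and it passed in each of the 18 alternatives. Slc16a7, the gene for the monocarboxylate transporter MCT2, was at 8.83, 6.05 and 12.1 CPM and at 13.3, 30.1 and 17.6 CPM. Hyperoxia 2 was far above the rest (log2 fold change 1.18, SE 0.31, edgeR adjusted p = 0.0356), and the call was lost without it, as it was without room air 1, room air 2 or hyperoxia 3 and with scaling by library size only (0.0515). Slc25a10, the mitochondrial dicarboxylate carrier gene, went up from 40 ± 3.68 in room air to 58.4 ± 2.79 CPM (log2 fold change 0.55, edgeR adjusted p = 0.0102). Among the libraries with Y-linked reads its log2 fold change was 0.59. Bsg, which encodes the chaperone of MCT1 and MCT4, did not pass (log2 fold change 0.25, edgeR adjusted p = 0.343), nor did the mitochondrial pyruvate carrier genes Mpc1 (0.53) and Mpc2 (0.15).

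Of 30 other genes of glycolysis and glycogen tested, 3 rose. Hkdc1, the gene of a hexokinase-like protein, was at 4.89, 3.01 and 4.34 CPM in room air and at 9.86, 17.7 and 13.2 CPM in hyperoxia. The hyperoxia libraries spread widely, all above room air (log2 fold change 1.73, SE 0.26, edgeR adjusted p = 0.00255, and 1.50 without hyperoxia 2). Per exonic length Hkdc1 went from 3.28% ± 0.738 to 11.4% ± 3.44 of the 4 hexokinase genes, and Hk1 from 90.2% ± 2.69 to 78.6% ± 5.23. The glycogen branching enzyme gene Gbe1 (log2 fold change 0.66, SE 0.14) and the phosphoglucomutase gene Pgm1 (0.60, SE 0.13) rose as well, with Itgb3bp exons on the opposite strand over 13.6% of Pgm1. Gbe1 did not pass without room air 2 or without hyperoxia 2 and room air 3 together. Among the libraries with Y-linked reads its log2 fold change was 0.69. Pgm1 did not pass without room air 1, room air 2 or hyperoxia 3. Tigar, a p53-induced brake on glycolysis that steers sugar to the pentose phosphate pathway, was at 10.2 ± 1.62 and 12.8 ± 2.54 CPM and did not pass (log2 fold change 0.33, edgeR adjusted p = 0.335). Bpgm, the bisphosphoglycerate mutase gene best known from red cells, was at 54.9 to 63.4 CPM in room air against 71.9 to 79.5 in hyperoxia (0.35, edgeR adjusted p = 0.0525), while the summed erythroid markers were at 32.7 to 52.2 CPM and 11 to 27.5 CPM.

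Of 17 other pentose phosphate and NADPH genes tested, 3 rose. Prps2, which makes the ribose donor of nucleotide synthesis, went up from 40 ± 5.96 in room air to 58.5 ± 2.82 CPM (log2 fold change 0.55, SE 0.13, edgeR adjusted p = 0.0184). The folate cycle genes Mthfd1 (log2 fold change 0.66, SE 0.15, edgeR adjusted p = 0.017) and Aldh1l1 (1.06, SE 0.29, edgeR adjusted p = 0.038) rose too, both with hyperoxia 2 as the highest library. All 3 calls were lost without room air 1, room air 2 or hyperoxia 3. Prps2 was also lost without hyperoxia 1 (edgeR adjusted p = 0.0507), and its log2 fold change among the libraries with Y-linked reads was 0.59. Aldh1l1 was lost in 8 of the 18 alternatives, among them without hyperoxia 2 (edgeR adjusted p = 0.112), without hyperoxia 2 and room air 3 together (0.0684), scaled by library size only (0.0517) and by limma-voom (adjusted p = 0.0541). H6pd, the endoplasmic reticulum counterpart of G6pdx, had a log2 fold change of 0.15 (edgeR adjusted p = 0.377), and the NAD kinase gene Nadk 0.29 (0.0914). Nnt, the mitochondrial transhydrogenase gene that makes NADPH from NADH, was at 0.0968 to 0.84 CPM in the 6 libraries and failed the filter. Its symbol has 2 IDs in the table, with 76 and 0 counts in all, and the other covers 47.4% of the exons of the ID used on the same strand, so its level is uncertain.

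**Figure D5:**
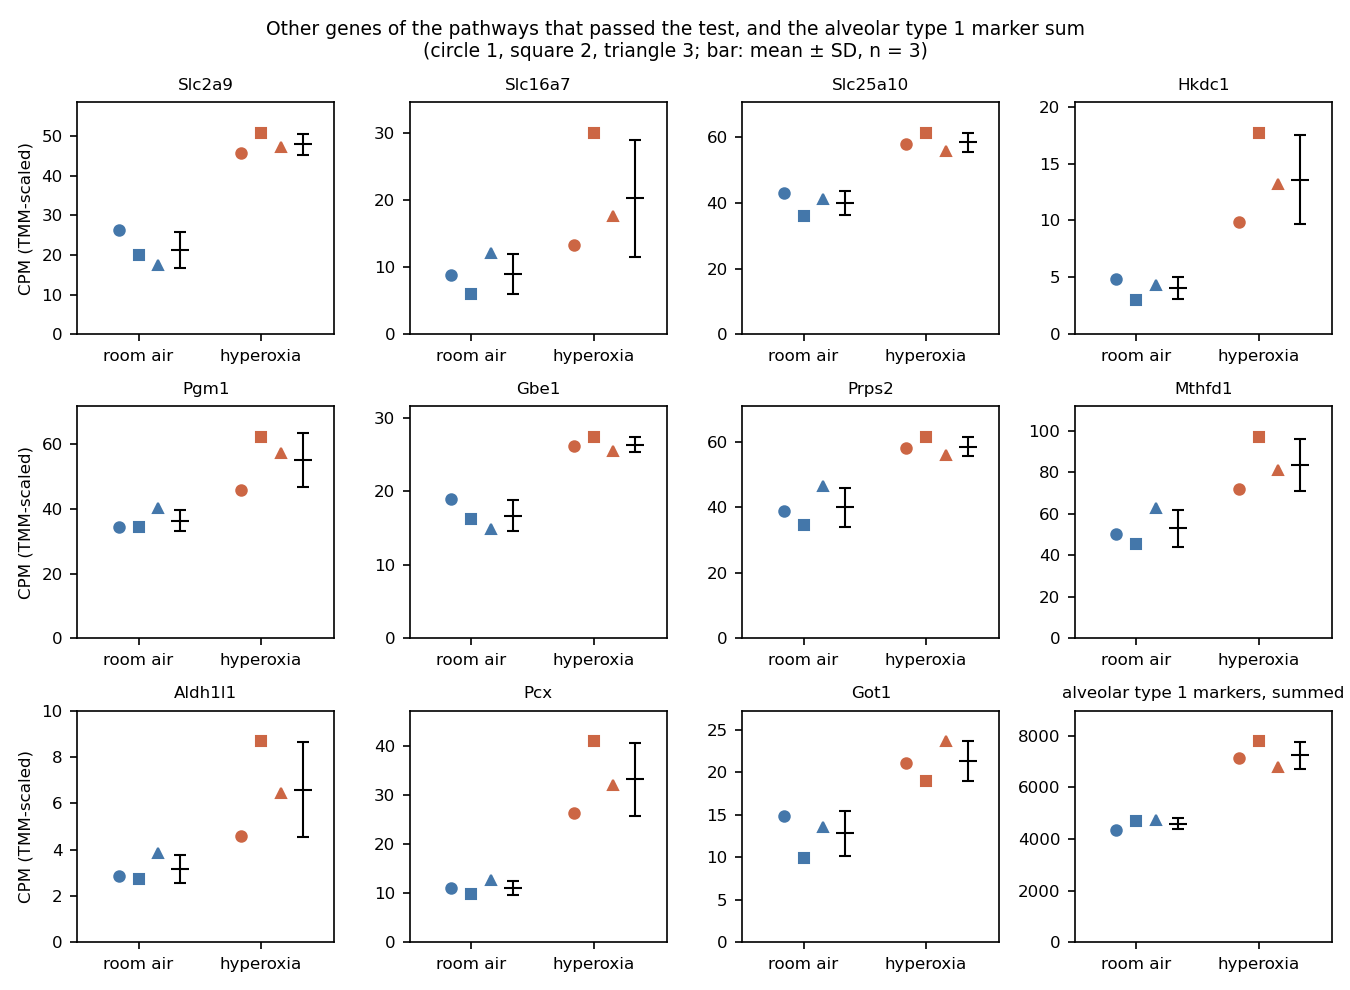
Level in CPM of the 11 other pathway genes that passed the test, 1 point per library (circle, square and triangle for replicates 1, 2 and 3) with mean ± SD, and in the last panel the summed CPM of the 10 alveolar type 1 markers. Hyperoxia 2 (square) is the highest library for the marker sum and for 10 of the 11 genes, the exception being Got1.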

How the data were processed

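The authors deposited raw counts for 56941 mouse gene IDs in 6 libraries. The submitters' processing notes list featureCounts, HISAT2 2.2.1, DESeq2, Subread 2.0.6 and GRCm39 without roles. How strand and multimapping reads were handled is not given there. Symbols matched 51948 IDs; where a symbol had 2 IDs (Aldoa, Nnt), the one with more counts was used. R 4.3.3 and edgeR 4.0.16 were used: filterByExpr (minimum count 10, minimum total 15), TMM (factors 0.975 to 1.04) and the robust quasi-likelihood test of hyperoxia against room air, adjusted by Benjamini and Hochberg over 17072 genes and called below 0.05. CPM are per TMM-scaled library. SE is the log2 fold change over the root of F. The approximate 95% limits use a normal multiplier of SE, so they are too narrow for 3 libraries per group. DESeq2 1.42.0 and limma 3.58.1 served as alternatives. Exonic lengths and copies came from GENCODE M21 (GRCm38). The test was checked on simulated data. Within groups, counts of any pair of libraries differed beyond sampling noise (chi-square over its degrees of freedom 14.1 or more), and each was used as 1 sample.

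The members and lists were chosen with earlier results of these data known, so their counts are descriptions. Named were all members, called genes of the pathway lists, Tigar, Nnt and 4 NRF2 targets. Bpgm, Bsg, Mpc1, Mpc2, Pdhb, Dlat, Dld, the Sdh genes, Me2, H6pd, Nadk, Slc2a10, Minpp1 and Pygm were named after their values were seen.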

Additional observations from a re-analysis of the deposited data

How the results depend on the processing

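Pfkl, Pgd, Me1, Pcx, Hkdc1 and Slc2a9 passed in the same direction under each of the 18 alternatives. The other calls were lost under 1 to 8 of them. Among the 18 is that of the libraries with Y-linked reads, where hyperoxia 2 alone stands for hyperoxia. The 7 higher members ranged from 2 to 7 with each library left out. The 7 without room air 3 held Hk2 in place of Pfkfb3. With the Y-linked read level as a term they were 7 too, with Hk2 in place of Aldoa. They were 4 without hyperoxia 2 and room air 3 together. That alternative and that of the libraries with Y-linked reads were chosen after seeing the data, and no counts are given for the latter. Of the 2 higher transporters, 1 was called with library size only or the replicate block. Without hyperoxia 2 and room air 3 together the number was 0, and with single libraries left out it was 0 to 2. The 3 higher glycolytic genes ranged from 0 to 3 and the 11 higher pathway genes from 4 to 11 with 1 library left out. A lower pathway gene, 1 in each case against 0, was called with no filter, without hyperoxia 2 and without both hyperoxia 2 and room air 3 (Pygm), and without room air 3 (Slc2a10). Across all genes the 1156 higher ranged from 681 to 1095 and the 753 lower from 376 to 749 with 1 library left out. The lower were 1243 with no filter, 1201 by DESeq2 and 1167 with the Y-linked read level as a term. The labels number the replicates without stating that the numbers pair libraries. Deviations of same-numbered libraries correlated at 0.215, -0.117 and -0.208. The highest value of any pair was 0.312, for room air 3 and hyperoxia 2, which differ in number. With 3 libraries per group such values can neither show nor exclude a pairing. With the replicate block 5 members were higher, Slc16a1 (adjusted p = 0.0833) and Aldoa (0.0791) being lost. With it 9 of the 11 other pathway genes were higher, Slc16a7 (0.0788) and Aldh1l1 (0.0722) being lost. No scaling moved the median of all genes by over 0.1. At these depths 3 counts correspond to about 0.0724 to 0.0765 CPM, so depth limits only the lowest genes.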
